A study of Mus musculus with 6 samples.

Results

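The 4 Hox clusters of the mouse genome were examined by ATAC-seq in organoids of a mouse lung cancer (NSCLC, the non-small cell kind) that were resistant or sensitive to immunotherapy. ATAC-seq uses a transposase that cuts and tags open DNA, and organoids are small 3-dimensional bodies of tumour cells kept in culture. There were 3 libraries of resistant organoids (Res) and 3 of sensitive organoids (Sen), and the labels give no genotype, passage, animal or treatment schedule for either group. They also do not say whether libraries came from separate cultures, so p-values reflect only how these libraries varied, and that variation may be technical. All peaks of any annotation assigned to 1 of 38 Hox genes were taken, which gave 95 peaks of 214414 in the authors' deposited table. These peaks fell to 24 of the 38 genes. Hoxa had 7 peaks on chromosome 6, Hoxb 23 on chromosome 11, Hoxc 59 on chromosome 15 and Hoxd 6 on chromosome 2. The authors' deposited table gives for each peak a mean normalized count over all libraries and the log2 fold change with its standard error, positive for higher in resistant organoids if the order in its title holds. Its columns per library could not be tied to sample labels, so levels of each group are not given and every fold change below is the authors'.

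Hox genes encode homeodomain transcription factors that give cells their position along the body axis. They stand in clusters in which genes of one paralogue group are the closest relatives across clusters, low group numbers lie at the 3′ end and act in anterior tissue, and high numbers lie at the 5′ end and act in posterior tissue. In cells that do not use them, Polycomb complexes keep the clusters compact, while active clusters open in broad domains that span several genes. In the embryonic lung, Hoxa5 and Hoxb5 are expressed in the mesenchyme and act in branching and airway formation.

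The start of Hoxb1 lay in the member peak with the largest loss that passed the test, and its upstream sequence is shown with that of Hoxd1, its relative of group 1, whose start lay in a faint peak. Hoxb4 and Hoxd4 are shown as the group 4 pair, since the first started inside a broad open domain and the second 4212 bp from any peak. Each run is the 250 bases before the start from RefSeq (build GRCm38.p6), written 5′ to 3′, with capitals for the letters TGATNNAT, a site of PBX and HOX proteins, searched on both strands.
Hoxb1, chr11:96365508-96365757, plus strand: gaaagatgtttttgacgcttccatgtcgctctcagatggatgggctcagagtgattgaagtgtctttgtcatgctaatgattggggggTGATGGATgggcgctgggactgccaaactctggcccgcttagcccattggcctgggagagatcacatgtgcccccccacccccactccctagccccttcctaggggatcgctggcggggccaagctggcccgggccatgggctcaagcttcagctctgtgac
Hoxd1, chr2:74762730-74762979, plus strand: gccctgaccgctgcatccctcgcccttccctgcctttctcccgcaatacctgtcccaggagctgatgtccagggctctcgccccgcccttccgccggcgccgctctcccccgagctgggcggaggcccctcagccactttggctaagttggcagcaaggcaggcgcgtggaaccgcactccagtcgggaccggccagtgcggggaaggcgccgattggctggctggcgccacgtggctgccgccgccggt
Hoxb4, chr11:96318017-96318266, plus strand: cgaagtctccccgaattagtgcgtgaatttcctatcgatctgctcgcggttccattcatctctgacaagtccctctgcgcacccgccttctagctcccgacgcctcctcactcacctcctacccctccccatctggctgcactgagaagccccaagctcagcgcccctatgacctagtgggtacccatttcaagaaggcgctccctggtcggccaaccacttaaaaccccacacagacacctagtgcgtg
Hoxd4, chr2:74721728-74721977, plus strand: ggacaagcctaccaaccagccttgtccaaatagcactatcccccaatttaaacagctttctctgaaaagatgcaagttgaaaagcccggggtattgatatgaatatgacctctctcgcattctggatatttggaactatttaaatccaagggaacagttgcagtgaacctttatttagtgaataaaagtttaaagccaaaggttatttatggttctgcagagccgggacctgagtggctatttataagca
Hoxb1 held the motif once, from position -162 counted back from the start, and the windows of Hoxd1, Hoxb4 and Hoxd4 held no match. TGATNNAT was present in 4 of 24 upstream windows of Hox genes, against 7.69% of 32841 windows of all genes. The 24 windows are those of the 22 Hox genes with a promoter sequence at hand, mostly of Hoxa and Hoxd. Of Hoxb they cover only Hoxb1, Hoxb4 and Hoxb8, and of Hoxc only Hoxc4. AGGTCA, one arm of a site for retinoic acid receptors, was in 6 of the 24 Hox windows, among them those of Hoxb4 and Hoxd4, against 14.0% of all windows. TAATTA, a core bound by many homeodomains, was in 2 of the 24, both of Hoxd11, against 4.84% of all. The windows had 59.2% G+C in Hoxb1, 71.6% in Hoxd1, 58.0% in Hoxb4 and 40.4% in Hoxd4. The median was 58.6% for the Hox windows, against 52.4% for all.

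The clusters differed in how much of them was open, and the largest open stretch was the 3′ part of Hoxb. Between the outermost genes taken, peaks of any gene covered 33.6% of Hoxb and 33.2% of Hoxc, but 7.12% of Hoxa and 6.62% of Hoxd. The chromosomes differed too, with 20.3% of chromosome 11, 33.7% of chromosome 15, 8.50% of chromosome 6 and 13.9% of chromosome 2 covered. Summed over the span, the mean normalized count was 5.18 per kb in Hoxb, against 3.02 per kb over chromosome 11. It was 4.29 per kb in Hoxc, against 4.87 per kb over chromosome 15. In Hoxa it was 0.890 per kb, against 1.07 per kb over chromosome 6, and in Hoxd 0.770 per kb, against 1.85 per kb over chromosome 2. Hoxb was thus above its chromosome, Hoxa and Hoxc were slightly below theirs, and Hoxd was at less than its chromosome's level. These sums have no error over libraries, and no test of the differences between clusters was made.

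**Figure D1:**
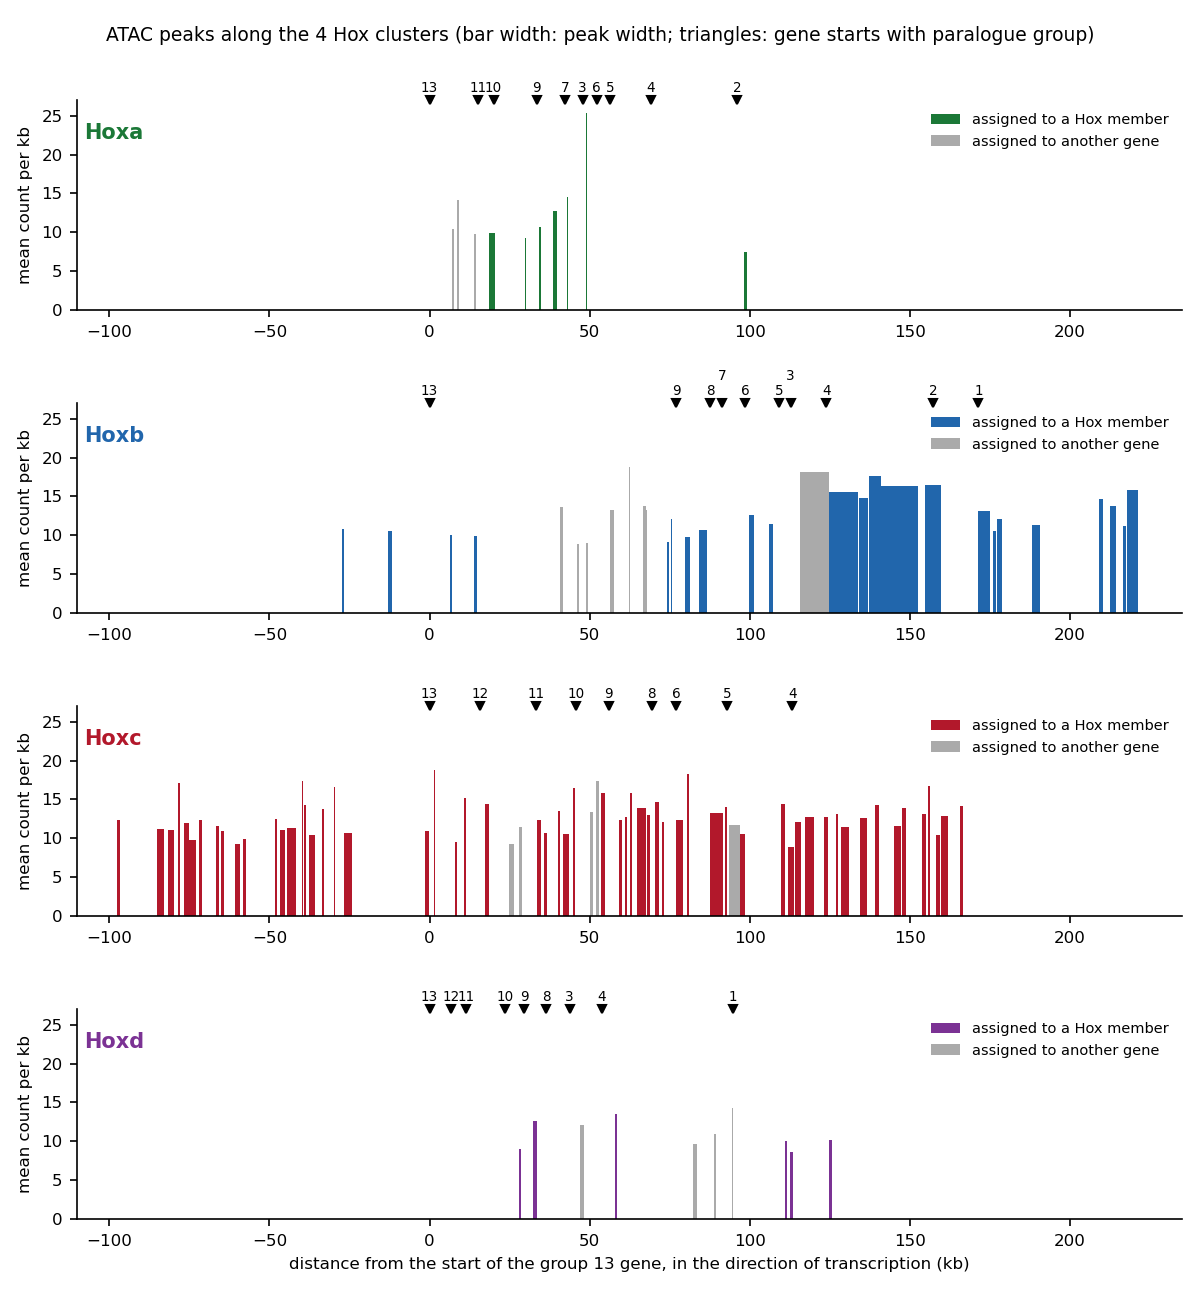
Mean normalized count per kb of peak width (vertical axis) against distance from the start of the group 13 gene of each cluster in the direction of transcription (horizontal axis, kb), with peaks of Hox genes in colour and other peaks over the cluster in grey. Triangles are RefSeq gene starts with their paralogue group, and the contiguous block between Hoxb4 and Hoxb2 stands out from the scattered narrow peaks elsewhere.

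The open domain of Hoxb ran from chromosome 11, 96309960 to 96354180, and 6 peaks covered 93.8% of its 44.2 kb. These peaks held 76.2% of the mean normalized count summed over the cluster. The first of them, 9051 bp wide, was assigned in the authors' deposited table to Mir10a, the microRNA gene between Hoxb5 and Hoxb4, and held the start of Hoxb4, a gene known for its role in blood stem cells. The next 4 were assigned to Hoxb3, which acts in the hindbrain and neck region, and the sixth to Hoxb2, a hindbrain gene. They had 14.7 to 18.1 counts per kb, against a median of 12.7 counts per kb over all tested peaks. The peak at Hoxb1, which marks a single segment of the hindbrain, stood apart with 13.2 counts per kb. Peaks at the posterior end of the cluster were narrower. Those of Hoxb6, Hoxb8, Hoxb9 and Hoxb13 had 9.15 to 12.6 counts per kb, and Hoxb5 and Hoxb7 had no peak of their own. Faint peaks assigned to Gm53 between Hoxb13 and Hoxb9 had 8.90 to 18.8 counts per kb, so density alone does not set the domain apart.

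Taking the RefSeq start of each gene, often only the outermost one, starts lay within a peak for 6 of the 38 genes and within 1 kb of one for 16. Hoxb1, Hoxb2 and Hoxb4 were 3 of the 6, and the others were Hoxa10, Hoxc4 and Hoxd1. By the starts used in the authors' deposited table, which include inner ones, 5 more genes had a peak over a start, namely Hoxa7, Hoxb3, Hoxc5, Hoxc6 and Hoxd3. By RefSeq starts, in Hoxc 7 of 9 lay within 1 kb of a peak, in Hoxa 4 of 10, in Hoxb 3 of 10 and in Hoxd 2 of 9. The genes to which the table assigned no peak were Hoxa4, Hoxa5, Hoxa6, Hoxa11 and Hoxa13, Hoxb4, Hoxb5 and Hoxb7, and Hoxd4, Hoxd8 and Hoxd10 to Hoxd13. The start of Hoxa5, the lung mesenchyme gene, was 6983 bp from the nearest peak. The starts of Hoxd11, Hoxd12 and Hoxd13, which pattern limbs and genitalia, were 13957 to 21267 bp from one. A missing peak says only that none was listed, not that the gene was closed in every cell.

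Few Hox peaks were called as changed between resistant and sensitive organoids. By the authors' DESeq2 Wald test, 2 of 47 tested Hox peaks were lower in resistant organoids and 0 were higher at an adjusted p under 0.05, both in Hoxb. In all peaks of the authors' deposited table the shares were 7.34% lower and 5.02% higher, or 12.4% in either direction. The 4.26% of Hox peaks called lies under that background, but both calls are lower ones, for which the background is 7.34%. The Hox share rests on 2 peaks, and its difference from the background was not tested. Tested Hox peaks had a median count of 21.3 and a median SE of 0.39, against 26.1 and 0.35 over all tested peaks. The part of count and error in the lower share was not tested. At an unadjusted p under 0.05, 3 tested Hox peaks were lower and 0 higher. In bulk libraries a smaller share of cells with an open site and less opening per cell cannot be told apart. The other 48 Hox peaks had no adjusted p, and each had a mean normalized count under 14.7, the lowest among all tested peaks. The tested share was 49.5% of the Hox peaks and 47.7% of all peaks. The median log2 fold change over tested Hox peaks was -0.14, against -0.07 over all tested peaks. Below 0 were 31 of the 47, which is 66.0%, against 55.5% of all tested peaks. No tested Hox peak reached a change of 2-fold. For 26 of the 47 the 95% interval lay wholly within a 2-fold change either way, so for the other 21 a change of that size was not excluded at this depth.

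The lower peaks were at Hoxb1 and Hoxb3, both towards the 3′ end of the cluster. The Hoxb1 peak covers the whole gene and its start (chromosome 11, 96365460 to 96369350, promoter class). It had a mean normalized count of 51.2 and a log2 fold change of -0.91 ± 0.26 (SE) in the authors' deposited table (DESeq2, adjusted p = 0.00636). The Hoxb3 peak (chromosome 11, 96335410 to 96346820), 11411 bp wide, is of the promoter class and lies over the 3′ part of the gene. It had a mean normalized count of 186 and a log2 fold change of -0.48 ± 0.15 (SE) in the authors' deposited table (adjusted p = 0.018). Neither call held once the median of the surroundings was subtracted. With the median of the 5 Mb window, -0.22, removed, Hoxb1 was at -0.69 (adjusted p = 0.0999) and Hoxb3 at -0.26 (adjusted p = 0.487). Hoxb1 alone passed when the trend along mean count was removed, at -0.78 (adjusted p = 0.0288), while Hoxb3 was then at -0.19 (adjusted p = 0.528).

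Around these, 1 more peak of the open domain passed the test, the one over Mir10a and the Hoxb4 start, which is not assigned to a Hox gene. It was lower at -0.50 ± 0.16 (SE; adjusted p = 0.0202) in the deposited values. The remaining peaks of Hoxb1, Hoxb2 and Hoxb3 were below 0 without passing the test. The other peaks of Hoxb3 were at -0.36 ± 0.19, -0.39 ± 0.28 and -0.27 ± 0.24 (SE) in the authors' deposited table, with mean normalized counts of 140.5, 43.9 and 66.7. Hoxb2 was at -0.34 ± 0.20 (SE) there, with a 95% interval of -0.74 to 0.06. Beyond Hoxb1, 7 intergenic peaks assigned to it lay up to 45942 bp downstream of its start. All 7 were below 0 in the authors' deposited table, from -0.21 to -0.68. The farthest, at chromosome 11, 96412200 to 96415530, was at -0.68 ± 0.25 (SE) and missed the threshold (adjusted p = 0.0538). In all, the 13 peaks of Hoxb1, Hoxb2 and Hoxb3 were below 0, and the 11 tested ones had a median of -0.39.

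No peak of the posterior part of Hoxb was called, and errors were wider there. Hoxb6, which acts in the trunk, had peaks at -0.20 ± 0.43 and 0.00 ± 0.43 (SE) in the authors' deposited table. Hoxb8, known from spinal cord and myeloid cells, was at -0.19 ± 0.36, and the tested peak of Hoxb9 at 0.21 ± 0.45 (SE) there. The 2 untested peaks of Hoxb9 were at 0.83 ± 0.84 and -0.42 ± 0.70 (SE). Faint untested peaks assigned to Gm53, between Hoxb13 and Hoxb9, ran from -1.03 to 0.35. The 4 faint intergenic peaks of Hoxb13, a prostate and hindgut gene, were untested and at -0.53 to 0.38. The 3 tested peaks of groups 5 to 8 had a median of -0.19. The difference between the anterior and posterior genes of the cluster was not tested, since peaks of the same libraries are not independent replicates.

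**Figure D2:**
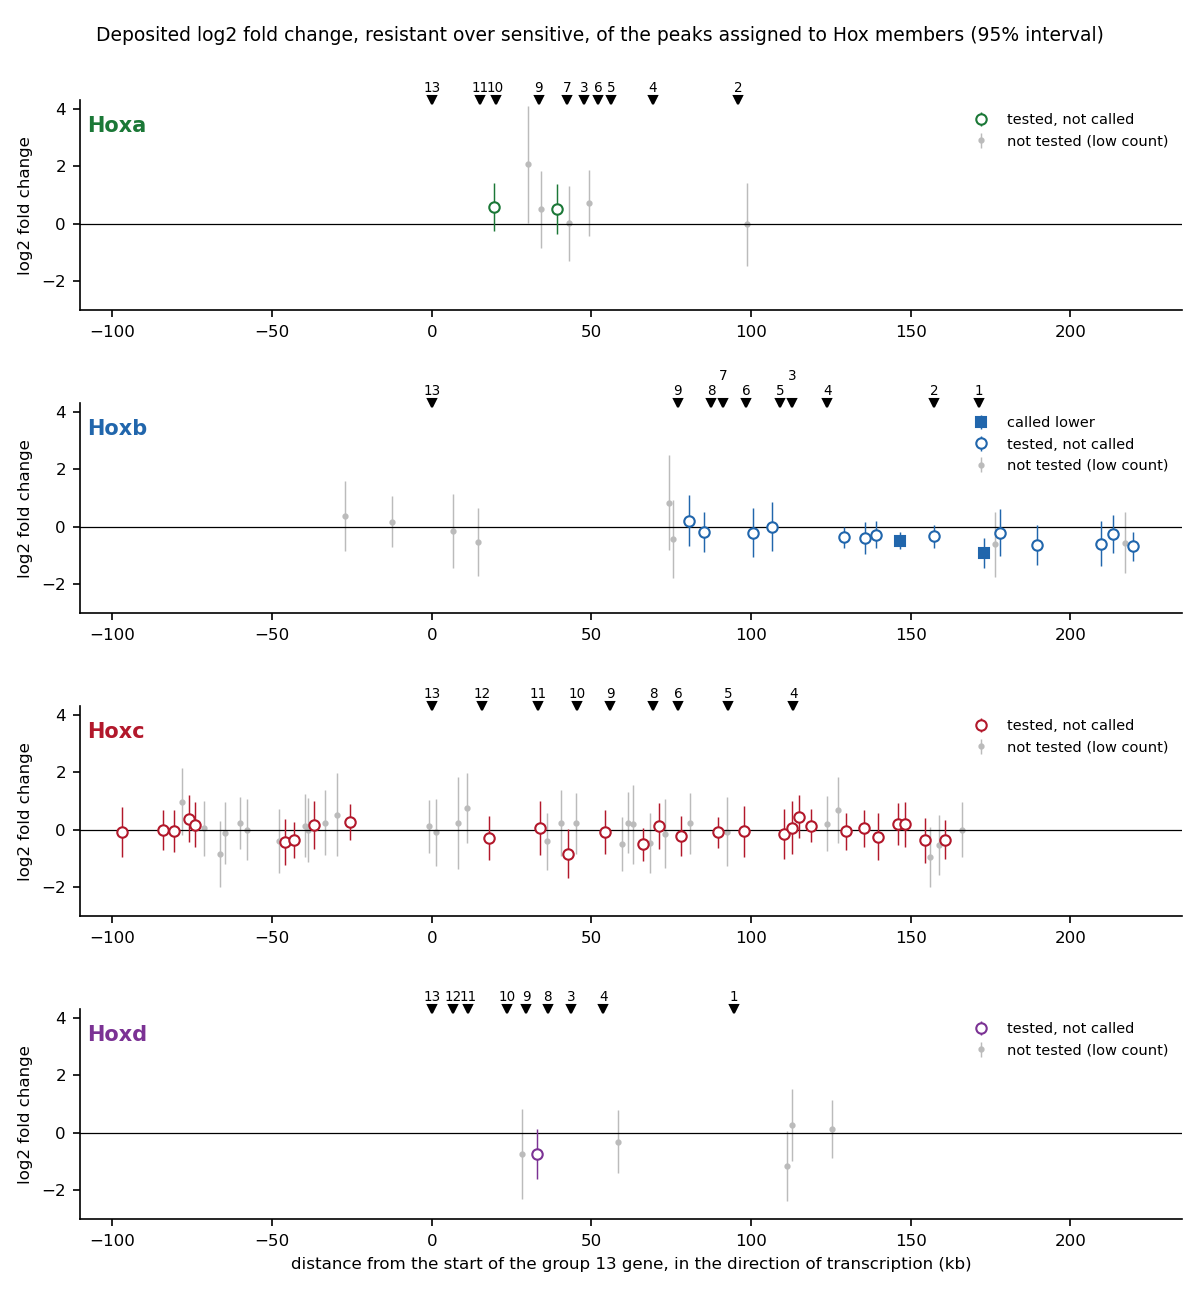
Log2 fold change of resistant over sensitive organoids with its 95% interval (vertical axis) for every peak of a Hox gene against distance from the start of the group 13 gene (horizontal axis, kb), with filled squares for called peaks, open circles for tested peaks and grey points for untested ones. All peaks from Hoxb3 to beyond Hoxb1 are below 0, 2 of them called, and the intervals of every other cluster's tested peaks include 0.

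The surroundings of Hoxb were mostly below 0 as well, and the median over all tested peaks of chromosome 11 was -0.21. Over all chromosomes 55.5% of tested peaks were below 0 and 12.4% were called. Outside the outermost Hoxb peaks and within 500 kb of them, 41 of 50 tested peaks of other genes were below 0 and the median was -0.28, beside -0.34 for the 15 tested Hoxb peaks. By the authors' deposited values 6 of the 50 were lower and 0 higher. With the Mir10a peak, which lies inside the cluster, they were 7 of 51, or 13.7% called, and the median was -0.29. Zfp652, a zinc finger gene, had the called promoter with the smallest p there, at -1.10 ± 0.29 (SE; adjusted p = 0.0028 in the authors' deposited table). Upstream of the Hoxb13 start 26 of 29 such peaks were below 0 (median -0.47), and downstream of it, Mir10a included, 16 of 22 (median -0.18). With the median of the 51 subtracted, the Hoxb median was -0.04.

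**Figure D3:**
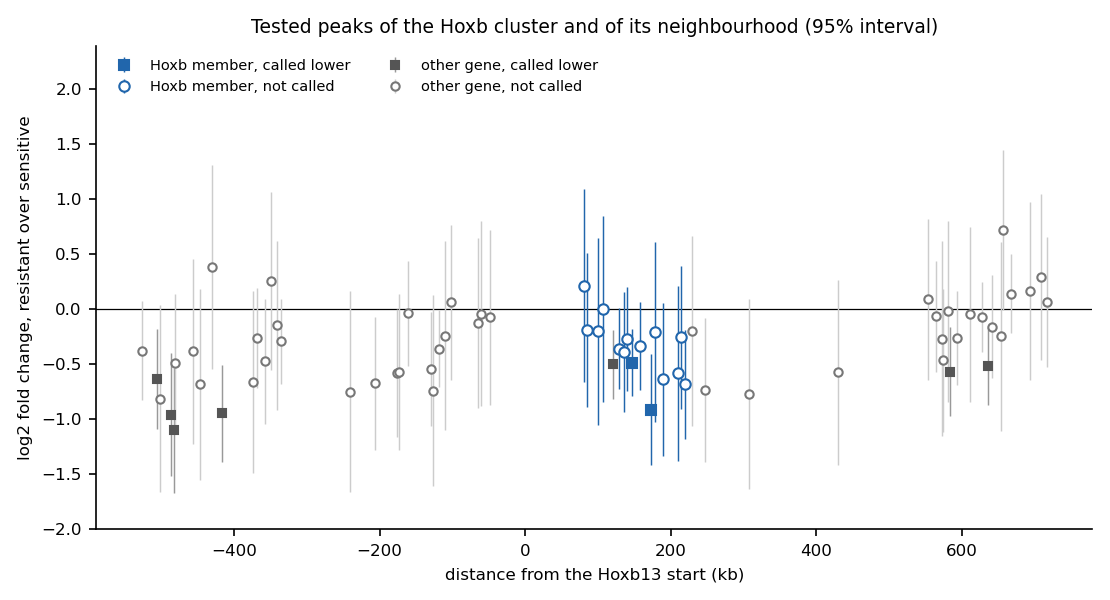
Log2 fold change of resistant over sensitive organoids with its 95% interval (vertical axis) for tested peaks of Hoxb genes (blue) and of other genes within 500 kb, Mir10a inside the cluster included (grey), against distance from the Hoxb13 start (horizontal axis, kb). Called peaks are filled squares, and 42 of the 51 grey peaks lie below 0, as do 13 of the 15 blue ones.

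Hoxc had the most peaks, most of them narrow, and none passed the test. Its 59 peaks had a median width of 1201 bp, and 36 were intergenic. By the authors' DESeq2 test 0 of 29 tested Hoxc peaks were higher and 0 lower, at an unadjusted p under 0.05 as well. Their median was -0.05, and 17 were below 0. The 95% interval of each of the 29 included 0, and for 18 it lay within a 2-fold change. The strongest, at Hoxc6 (chromosome 15, 103008870 to 103012710), had a mean normalized count of 51.1 and a log2 fold change of -0.09 ± 0.27 (SE) in the authors' deposited table, with an interval of -0.62 to 0.44. Hoxc6 and Hoxc8 act in the thoracic region. The strongest peak of Hoxc8 was at -0.50 ± 0.29 (SE) there, and its other tested peak at 0.14 ± 0.41 (SE). Hoxc10, a lumbar gene, had the lowest tested value of the cluster, -0.83 ± 0.43 (SE; adjusted p = 0.223 in the authors' deposited table), in a peak of the promoter class upstream of its start. The peak nearest its start was untested and at 0.22 ± 0.54 (SE). Hoxc13, known for hair and nail growth, took 22 peaks, 20 of them intergenic and reaching to -96513 bp from its start, and its 9 tested peaks had a median of -0.01. Hoxc4, at the other end, took 17 peaks reaching 52455 bp downstream, of which the 12 tested ones had a median of 0.00. The peak over the RefSeq start of Hoxc4 was at 0.07 ± 0.47 (SE). Its strongest promoter peak was at 0.45 ± 0.38 (SE), the highest tested value of the cluster, and was not called. Hoxc5, Hoxc9, Hoxc11 and Hoxc12 had promoter peaks at -0.06, -0.08, 0.06 and -0.29 in the authors' deposited table, with that of Hoxc5 untested.

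Peaks were denser in Hoxc than along its chromosome, with 25.9 per 100 kb of the span, against 16.6 per 100 kb of chromosome 15. So they were in Hoxa, with 10.2 against 5.35, and in Hoxb, with 12.6 against 10.5, but not in Hoxd, with 7.22 against 7.80. The flanks of Hoxc were near 0 as well, with a median of -0.07 over 154 tested peaks of other genes, 4 of them inside the cluster, of which the deposited test called 3 higher and 3 lower. Among the called promoters of those flanks, the integrin gene Itga5 was higher at 0.83 ± 0.18 (SE; adjusted p = 0.000118 in the authors' deposited table), and Prr13 lower at -0.46 ± 0.15 (SE; adjusted p = 0.026 in that table).

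Hoxa had faint peaks at Hoxa2, Hoxa3, Hoxa7, Hoxa9 and Hoxa10, and none passed the test. The tested ones were at Hoxa7, a trunk gene, with 0.51 ± 0.45 (SE), and at Hoxa10, a gene of the uterus and lower spine, with 0.59 ± 0.43 (SE) in the authors' deposited table. Their mean normalized counts were 16.0 and 18.7, just above the lowest tested value, and their intervals of -0.37 to 1.38 and -0.25 to 1.42 include 0. With errors of this size a change had to exceed 1.17 to 1.23 on the log2 scale to be called. The untested peaks at Hoxa2, Hoxa3, Hoxa7 and Hoxa9 had mean normalized counts of 3.61 to 8.88. That of Hoxa3, a gene needed for thymus and parathyroid, was the densest Hox peak at 25.3 counts per kb over 351 bp. A peak of Hoxa9, a blood progenitor and leukaemia gene, was at 2.06 ± 1.04 (SE; unadjusted p = 0.0483 in the authors' deposited table) on a mean count of 3.61, so little can be read from it. Of the 7 Hoxa peaks 6 were above 0, but 5 of the 7 were untested. The median over all tested peaks of chromosome 6 was above 0 too, at 0.21. The flanks of Hoxa had a median of 0.06 over 28 tested peaks, of which 3 were called lower and 0 higher by the authors' DESeq2 test.

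Hoxd was the least open of the clusters. A single peak of Hoxd was tested, near Hoxd9, a gene of the posterior trunk and limb, with a mean normalized count of 16.9 and a log2 fold change of -0.73 ± 0.45 (SE; adjusted p = 0.326 in the authors' deposited table). Its second peak was untested and at -0.75 ± 0.80 (SE). Hoxd3, which acts in the upper neck vertebrae, had an untested promoter peak at -0.31 ± 0.56, and the 3 intergenic peaks assigned to Hoxd1 were at -1.15, 0.26 and 0.13 in the authors' deposited table, all untested. The peak over the Hoxd1 start itself was assigned to the antisense RNA gene Haglr, with a mean normalized count of 5.85. The flanks of Hoxd had a median of -0.46 over 12 tested peaks of other genes, 1 of which lies inside the cluster, and 1 was called lower by the deposited test.

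Each gene was also represented by its strongest promoter peak. Of 22 Hox genes with one, 16 were tested, and the same peaks of Hoxb1 and Hoxb3 were the 2 called lower, with 0 higher, by the authors' DESeq2 test. Over all genes 17.5% of strongest promoters were called, and 13.9% were lower and 3.58% higher. The tested Hox promoters had a median of -0.20, against -0.18 for 15490 genes. The median fold change of all tested peaks fell with the mean count, as the plot of fold change by mean count shows. In the group of highest counts it was -0.30, with a range from the 5th to the 95th percentile of -1.09 to 0.60. The 6 Hox peaks of higher mean count than Hoxc6 are all in Hoxb.

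**Figure D4:**
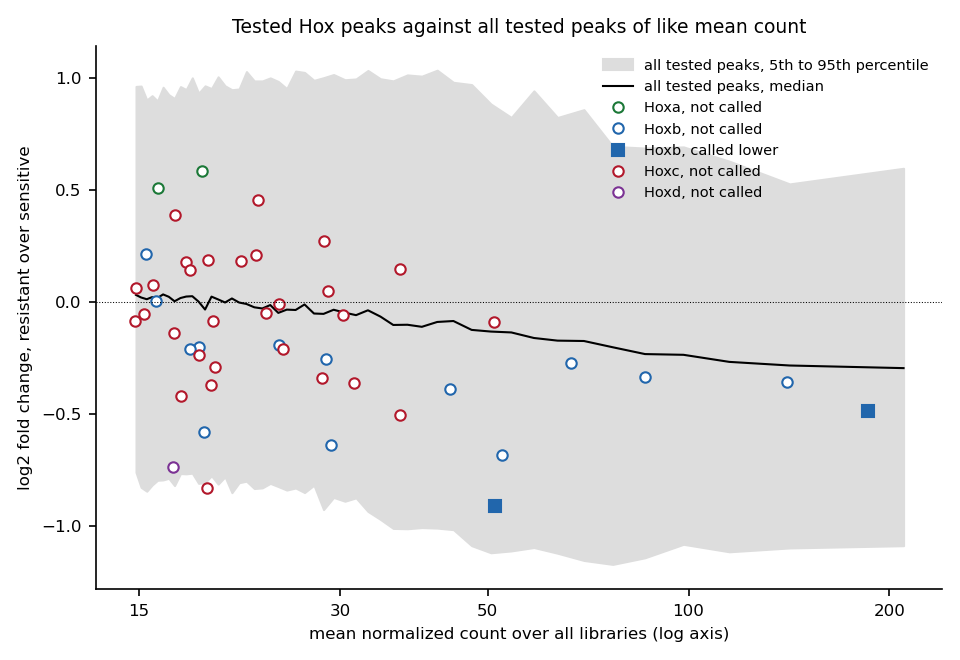
Log2 fold change of resistant over sensitive organoids (vertical axis) against the mean normalized count (horizontal axis, log scale) for the 47 tested Hox peaks, over the median (line) and the range from the 5th to the 95th percentile (grey) of all tested peaks in 50 groups of like count. The median of all peaks falls with the count to -0.30 in the group of the Hoxb3 peak at 186. All but 1 of the Hox points lie inside the grey range, and the 1 outside is the uncalled Hoxc10 peak at -0.83.

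Several microRNA genes lie inside the clusters, and members of a family recur at matching places. Their mature sequences are shown with the seed, bases 2 to 8, in capitals, from RefSeq (build GRCm38.p6), because a shared seed lets the copies of different clusters act on like targets.
miR-10a-5p, chromosome 11, Hoxb: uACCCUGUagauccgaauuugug
miR-10b-5p, chromosome 2, Hoxd: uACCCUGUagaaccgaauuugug
miR-196a-5p, chromosomes 11 and 15, Hoxb and Hoxc: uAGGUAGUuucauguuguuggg
miR-196b-5p, chromosome 6, Hoxa: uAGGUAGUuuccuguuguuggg
The miR-10 pair shares its seed and differs by U12A, counted from the 5′ end of miR-10a-5p with its base first. The peak over Mir10a had a mean normalized count of 164 and was lower at -0.50 ± 0.16 (SE; adjusted p = 0.0202 in the authors' deposited table), and it was at -0.28 (adjusted p = 0.475) with the window median subtracted. Mir10b had no peak over it. The nearest, 94 bp away and assigned to Hoxd3, had a mean normalized count of 9.50 and was untested. Mir196a-2, between Hoxc10 and Hoxc9, lay in a peak at -0.74 ± 0.47 (SE; adjusted p = 0.354 in that table). Mir196a-1 and Mir196b were 2797 and 490 bp from the nearest peaks, both untested. ATAC-seq does not measure the microRNAs themselves.

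The list of neighbours and non-coding RNA genes of the clusters held 33 symbols. Among them was Mir6405, whose promoter peak lies on chromosome 19, away from the clusters. Of the 33, 18 had a tested promoter, and 2 were lower and 0 higher by the authors' DESeq2 test, with a median of -0.18. Over all strongest promoters 13.9% were lower, so this count is near the background. The lower ones were Mir10a and Snx11, a sorting nexin gene near Hoxb, at -0.57 ± 0.20 (SE; adjusted p = 0.047 in the authors' deposited table). Hotair, an RNA gene in Hoxc, was at 0.27 ± 0.47 and not called. Hottip and Hotairm1, RNA genes at the ends of Hoxa, were untested at 0.65 ± 0.48 and 2.77 ± 1.12 (SE) in the authors' deposited table, the second on a mean normalized count of 3.37.

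Among partners and regulators of Hox genes, a few promoters changed. HOX proteins bind DNA with PBX and MEIS proteins, and of 9 such cofactor genes 1 was higher and 0 lower. It was Meis2, at 1.27 ± 0.24 (SE; adjusted p = 6.42e-06 in the authors' deposited table) and at 1.52 with its window's median subtracted. By the authors' deposited values Meis1 was not called, at 0.27 ± 0.24 (SE), and the list's median was -0.34. Polycomb complex PRC2 marks silent Hox clusters, and 4 of its 11 genes were lower and 0 higher, with a median of -0.37. Ezh1, a catalytic subunit, was at -1.37 ± 0.26 (SE; adjusted p = 5.34e-06 in the authors' deposited table), and Phf1, Phf19 and Mtf2, which help to bring the complex to DNA, were at -0.65, -0.50 and -0.81 there. With their windows' medians subtracted Ezh1 was at -1.19, and Phf1, Phf19 and Mtf2 were at -0.25, -0.31 and -0.30. The other catalytic subunit gene, Ezh2, was at 0.04 ± 0.24 (SE). PRC1, which compacts marked chromatin, had 3 lower and 0 higher of 15 tested promoters, with a median of -0.14. They were Pcgf3, Cbx7 and Ring1, at -0.75, -0.47 and -0.36 in the authors' deposited table, and Ring1 was on the other side of 0, at 0.19, with its window's median subtracted, when Pcgf3 was at -0.25 and Cbx7 at -0.37. Of 14 genes of the opposing trithorax group and of histone demethylases 4 were lower and 0 higher, with a median of -0.34. They were Ash2l, Kdm6b, Kmt2c and Kdm6a, at -0.95, -0.52, -0.67 and -0.69 in the authors' deposited table, and at -0.68, -0.29, -0.09 and -0.28 with their windows' medians subtracted. Over all strongest promoters 13.9% were lower and 3.58% higher. The lower calls, 4 of 11 for PRC2, 3 of 15 for PRC1 and 4 of 14 for trithorax and demethylases, are larger shares. They come from few genes, as does the 1 higher of 9 cofactor genes, and the differences from the background were not tested.

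Retinoic acid activates anterior Hox genes in the embryo. Of 13 tested promoters of that pathway 1 was higher and 1 lower, set against 3.58% higher and 13.9% lower over all strongest promoters. Crabp2, which carries retinoic acid to the nucleus, was at 1.30 ± 0.24 (SE; adjusted p = 6.85e-06 in the authors' deposited table). Aldh1a1, which makes retinoic acid, was at -0.88 ± 0.25 (SE; adjusted p = 0.00627 in that table). The receptor genes Rara, Rarb and Rarg were at -0.28, 0.12 and -0.14 and not called. Caudal genes activate posterior Hox genes in the embryo, and with the ParaHox genes 2 of 4 tested promoters were lower and 0 higher. These were Cdx2 at -1.06 ± 0.22 (SE) and Pdx1 at -0.64 ± 0.20 (SE) in the authors' deposited table, genes of gut and pancreas, which lie on the same stretch of chromosome 5. Without their window's median they were at -0.52 and -0.09.

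Markers of cell types were set beside these values. All 7 tumour epithelium promoters were lower in resistant organoids (median -1.54), with mean normalized counts of 87.2 to 785. Of 5 tested lung lineage promoters 3 were lower, among them Nkx2-1, the lung epithelial factor, at -0.93 ± 0.21 (SE) in the authors' deposited table, and Sftpc had no promoter peak. Fibroblast markers were higher in 2 of 5 tested promoters, Pdgfrb and Col1a2, on mean normalized counts of 28.1 and 15.6. Pdgfra, Col1a1 and Dcn were at 0.04, -0.01 and 0.47 and not called, on mean normalized counts of 108, 55.0 and 18.5. Endothelial and leukocyte markers were called in 0 of 3 and 0 of 2 tested promoters by the authors' DESeq2 test, and Ptprc, which marks leukocytes, had no promoter peak. Gut endoderm markers were lower in 2 of 4, the same Cdx2 and Pdx1. Over all strongest promoters 13.9% were lower and 3.58% higher. The part of these marker differences in the Hoxb values was not tested.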

How the data were processed

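ATAC-seq was measured in 6 libraries, 3 of resistant and 3 of sensitive mouse lung cancer organoids. Per the submitters' processing notes, which state no roles, the tools were Bowtie2 2.2.1, SAMtools 1.8, GATK 4.1.3, deepTools, featureCounts, ChIPseeker 1.22.1, R 3.6.1 and DESeq2 1.26.0 on build mm10. For the peak caller, duplicate removal and Tn5 shift, the roles and settings were not given in the sources used here. Kept duplicates could make the errors too small, which was not tested.

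The authors deposited 1 table of 214414 peaks. The authors' values are a signal (the mean normalized count), a log2 fold change with standard error, a score (the Wald statistic, which is fold change over error), and a p-value, plain and adjusted, with widths and distances in bp. The 6 columns per library match no sample label and were not used, so no depth per library is given. The order of the groups rests on the table's title.

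Hox peaks were taken by the gene symbol in the table, and calls are the authors' at an adjusted p under 0.05. Their 95% intervals are the fold change ± 1.96 SE. Promoters are peaks of the promoter class (within 3 kb), strongest per gene. Windows were 5 Mb with at least 20 tested peaks, otherwise the chromosome. Flanks were tested peaks of other genes within 500 kb of a cluster's outermost Hox peaks, those between the Hox peaks included. Corrected values used a normal test with the deposited error and Benjamini-Hochberg over all tested peaks. Only the window correction was tried on simulated data, with a constant shift per chromosome. The trend and flank corrections were not. Peaks of 200 kb or more were left out of chromosome coverage. Gene starts and sequences came from RefSeq (GRCm38.p6, the same assembly as mm10), the outermost start where no promoter entry was at hand. Every member, every called Hox peak and the called list promoters of smallest p are named by rule. Genes named without a call were chosen after their values were seen. The members and lists were chosen with earlier results of these data known. Calculations ran in Python 3.11.15 with NumPy 2.4.6, pandas 2.3.3, matplotlib 3.10.9 and SciPy 1.17.1.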

Additional observations from a re-analysis of the deposited data

How the results depend on the processing

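The 2 lower calls, which are the same in Hox peaks and Hox promoters, depended on the processing. They came to 0 with the 5 Mb window median subtracted, with the 500 kb flank median subtracted, with window median and abundance trend both subtracted (an alternative chosen after seeing the data) and when a 2-fold change was required. The count was 1 with the abundance trend subtracted, with peaks up to 5 kb wide and at an adjusted p under 0.01. At an unadjusted p under 0.05, 1 Hox peak was lower with the window or flank median subtracted, and 2 with the trend subtracted. The count stayed at 2 with no filter on low counts and at a mean count of at least 50, and was 3 when all peaks over the clusters were taken, which adds Mir10a (chosen after seeing the data). The normal test of corrected values leaves out the error of the subtracted median. Higher calls were 0 throughout by the authors' DESeq2 values and by the corrected tests, with 1 at an unadjusted p under 0.05 when no filter was used. The single tested Hoxd value was -0.27 in place of -0.73 with the flank median subtracted, and the Hoxb median was -0.04 in place of -0.34. The Hoxb median was -0.12 with the window median subtracted. The Hoxc median, -0.05, was on the other side of 0, at 0.07, with the window median subtracted, and the Hoxa median stayed above 0 under the window and flank subtractions. No paired analysis was possible because the columns per library match no sample label, and leaving out each replicate was not run for the same reason. Low mean counts limit Hoxa and Hoxd most, where 3 of 13 peaks were tested.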
